A study of Mus musculus with 43 samples.

Results

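Chromosome 18 was examined as a set of repressive domains: every peak that the deposited lists place on this autosome was taken, 1348 of the 48260 peaks in all 12 lists. The chromosome was chosen by measured values, the numbers of its H3K9me3 peaks in the Setdb1-depleted and female lists, so these numbers are given as a description, with no test. Its length in mm10 is 90.7 Mb. The 3 lists per mark placed 151 peaks of H3K9me2, 436 of H3K9me3, 613 of H3K27me3 and 148 of Setdb1 on it.

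ChIP-seq lists were available for these marks and Setdb1 itself, that is from chromatin immunoprecipitation followed by sequencing, in mouse embryonic fibroblasts (MEFs), which are cultured connective tissue cells, made from E13.5 embryos. Dams were 129/C57 and sires CAST, and the Xist∆A allele makes the CAST X chromosome the inactive one in every female cell. Female cells were Setdb1+/+ Xist∆A/+ with a non-silencing hairpin, Setdb1-depleted cells were female Setdb1+/gt Xist∆A/+ with a hairpin against Setdb1, and male cells were Setdb1+/+ X/Y with the non-silencing hairpin. All 3 kinds of cells had been transduced with a retrovirus and selected with puromycin, and the gt allele is a gene trap in Setdb1. Each list pools 3 female, 2 Setdb1-depleted or 3 male libraries of 1 target, so no value has a replicate error.

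Setdb1 is an enzyme that methylates lysine 9 of histone H3. H3K9me3 is best known from gene-poor, repeat-rich chromatin and from silent gene clusters, whereas H3K9me2 forms broad, weak domains. H3K27me3 is laid down by the Polycomb complex PRC2 and covers developmental genes that a cell type does not use.

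The labelled cell type was checked on H3K27me3, since expression was not measured here. None of the starts of 10 fibroblast genes, such as Col1a1 and Pdgfra, lay in an H3K27me3 peak in any list. The starts of 8 of 9 autosomal genes of other lineages did so in each of the 3 lists, among them Pax6 and Myod1. The histone lists hold no height or p-value of the mark, and their read depth is not known, so a peak can only be present or absent. Intervals in what follows are exact 95% intervals that cover counting error alone, and reads copied by PCR are not independent molecules.

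H3K9me3 was the mark with the fewest peaks left on chromosome 18 relative to the female list. The female list held 202 peaks, the Setdb1-depleted list 79 and the male list 155. The ratio of Setdb1-depleted to female peaks was 0.391 (0.298 to 0.510), or -1.35 on the log2 scale. The bases covered gave the same log2 ratio, from 3.20% of the chromosome in female cells to 1.26% in Setdb1-depleted cells, with 2.46% in male cells. On the other 18 autosomes together the ratio was 0.603, and single autosomes ran from -1.20 on chromosome 11 to -0.28 on chromosome 7. The Setdb1-depleted list rests on fewer libraries than the other lists, and the effect of that on the number of peaks was not tested.

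H3K27me3 showed a smaller difference in the same direction, and H3K9me2 showed none. The lists held 231 female, 166 Setdb1-depleted and 216 male peaks of H3K27me3, a log2 ratio of -0.48 for Setdb1-depleted over female (ratio 0.719, 0.585 to 0.881). The other autosomes ran from -0.38 to -0.08. For H3K9me2 there were 51, 51 and 49 peaks, a ratio of 1.00 (0.67 to 1.5), against 0.723 on the other autosomes together. Chromosome 18 thus stood at the low end of the 19 autosomes for H3K9me3 and H3K27me3 and next to the highest for H3K9me2. When equal numbers of the widest autosomal peaks were taken from each list, the log2 ratios on chromosome 18 were -0.37 for H3K9me3 (other autosomes from -0.34 to 0.34), -0.15 for H3K27me3 (from -0.13 to 0.11) and 0.61 for H3K9me2 (from -0.41 to 0.49).

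**Figure D1:**
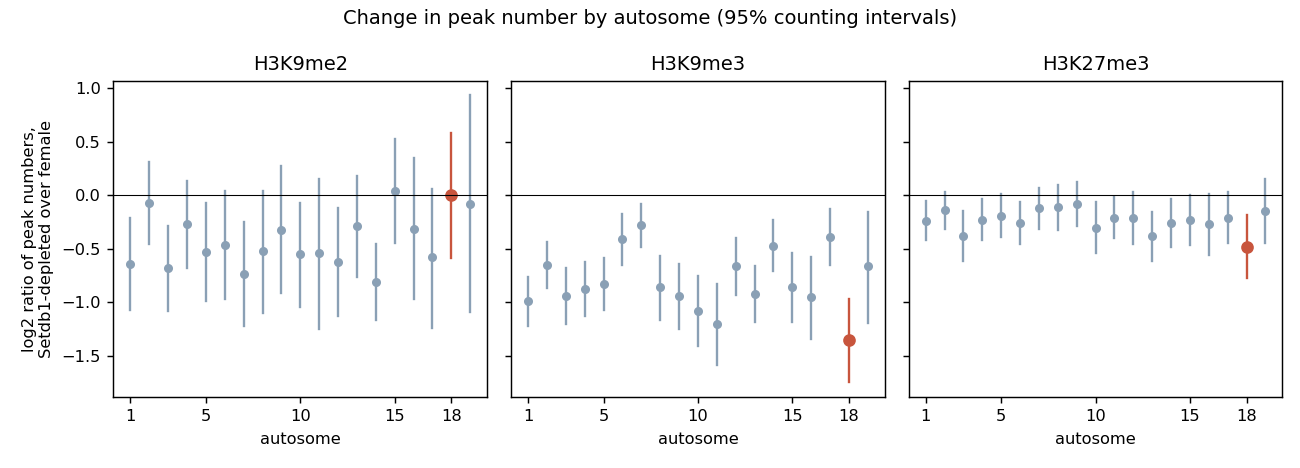
Log2 ratio of peak numbers, Setdb1-depleted over female, for each of the 19 autosomes and each histone mark, with exact 95% counting intervals as vertical lines. Chromosome 18, in red, is lowest for H3K9me3 at -1.35 and for H3K27me3 at -0.48, and at 0.00 for H3K9me2.

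The male list was compared with the female list in the same way, since both come from cells with intact Setdb1 alleles. Male over female was -0.38 for H3K9me3 on chromosome 18 (ratio 0.767, 0.618 to 0.951), again the lowest of the 19 autosomes, of which the next lowest was -0.37 on chromosome 15. With equal numbers of the widest peaks it was -0.19, and chromosome 15 was lower at -0.22. The odds ratio against the other autosomes was 0.852 (0.684 to 1.06), an interval that includes 1. H3K27me3 and H3K9me2 gave -0.10 and -0.06. Both contrasts use the same female list, whose H3K9me3 number was also used to choose the chromosome. The rank of male over female for H3K9me3 is therefore no separate support. Setdb1-depleted over male, which leaves the female list out, was a comparison chosen after seeing the data. It was -0.97 for H3K9me3 (-1.38 to -0.57), rank 3 of 19 from the lowest, with chromosome 16 lowest at -1.02. The low Setdb1-depleted number in it was used to choose the chromosome, so it is no separate support.

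A map in 5 Mb windows, counted from the centromeric end and with each peak placed by its midpoint, showed where the H3K9me3 peaks were missing. Of 19 windows, 17 held fewer H3K9me3 peaks in the Setdb1-depleted list and 2 held more. Window 2, from 5 to 10 Mb, held the most female peaks of any window, 30, against 6 in the Setdb1-depleted list and 21 in the male list (ratio 0.200, 0.0681 to 0.488). The genes in or nearest to these peaks included Zfp438, Zeb1, Epc1, Mkx, Armc4, Mpp7, Wac and Fzd8, and the peaks that were kept were nearest to or in Zeb1, Epc1, Mkx, Armc4 and Wac. The windows of largest loss, 2, 11 and 10, made up 39.0% of the net loss of 123 peaks.

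Window 11, from 50 to 55 Mb, was the only window of chromosome 18 with no H3K9me3 peak in the Setdb1-depleted list. It held 14 female peaks of 10 or 15 kb, with nearest genes from Fam170a to Zfp608, and 5 male peaks, of which 4 overlapped female ones. Its ratio was 0, with an upper bound of 0.301, and 5.48 peaks would have been there at the chromosome-wide ratio. Of the 410 windows on other autosomes with at least 5 female peaks, 10 also held no Setdb1-depleted peak, and none of the 250 with at least 10 did. For H3K27me3 the same window held 12 female and 12 Setdb1-depleted peaks, but mostly at different places. Of the 12 female peaks, 8 overlapped no Setdb1-depleted peak, where 41.2% of all autosomal female H3K27me3 peaks were missing. Of the 12 Setdb1-depleted peaks, 7 overlapped no female peak, against 25.5% over all autosomes.

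H3K9me3 peak numbers stayed near those of the female list at the distal end and around the protocadherin genes. Windows 18 and 19, which run from 85 Mb to the end of the chromosome, together held 23 female and 21 Setdb1-depleted peaks. Window 18 went from 15 to 11 and window 19, only 0.7 Mb long, from 8 to 10. Window 8, the gene-richest window with 120 starts of protein-coding genes, went from 8 to 9 peaks, but its covered length went from 345 to 165 kb. By position, 5 of the 15 female peaks in window 18 overlapped a Setdb1-depleted peak. In windows 19 and 8 it was 5 of 8 and 4 of 8. Over all autosomes 66.7% of female H3K9me3 peaks overlapped none. In windows chosen after seeing the data, leaving out 8, 18 and 19 moved the log2 ratio from -1.35 to -1.80, and leaving out 2, 10 and 11 moved it to -1.05.

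Whether this loss was even was described by a dispersion ratio, the chi-square of the window counts over its degrees of freedom. It is near 1 for independent counts with 1 ratio in all windows. The lists share peaks, so their counts are not independent, and the ratio is read only against the other autosomes. The ratio was 1.61 for H3K9me3 on chromosome 18, rank 16 of 19 from the lowest. The other autosomes ran from 0.610 to 1.75, with a median of 1.13. Among windows with at least 5 female peaks, 7 of 16 on chromosome 18 (43.8%) held at most 0.25 of the female number, against 18.3% on the other autosomes. Fewer peaks were thus found over most of the chromosome, and its dispersion ratio lay inside the range of the other autosomes.

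**Figure D2:**
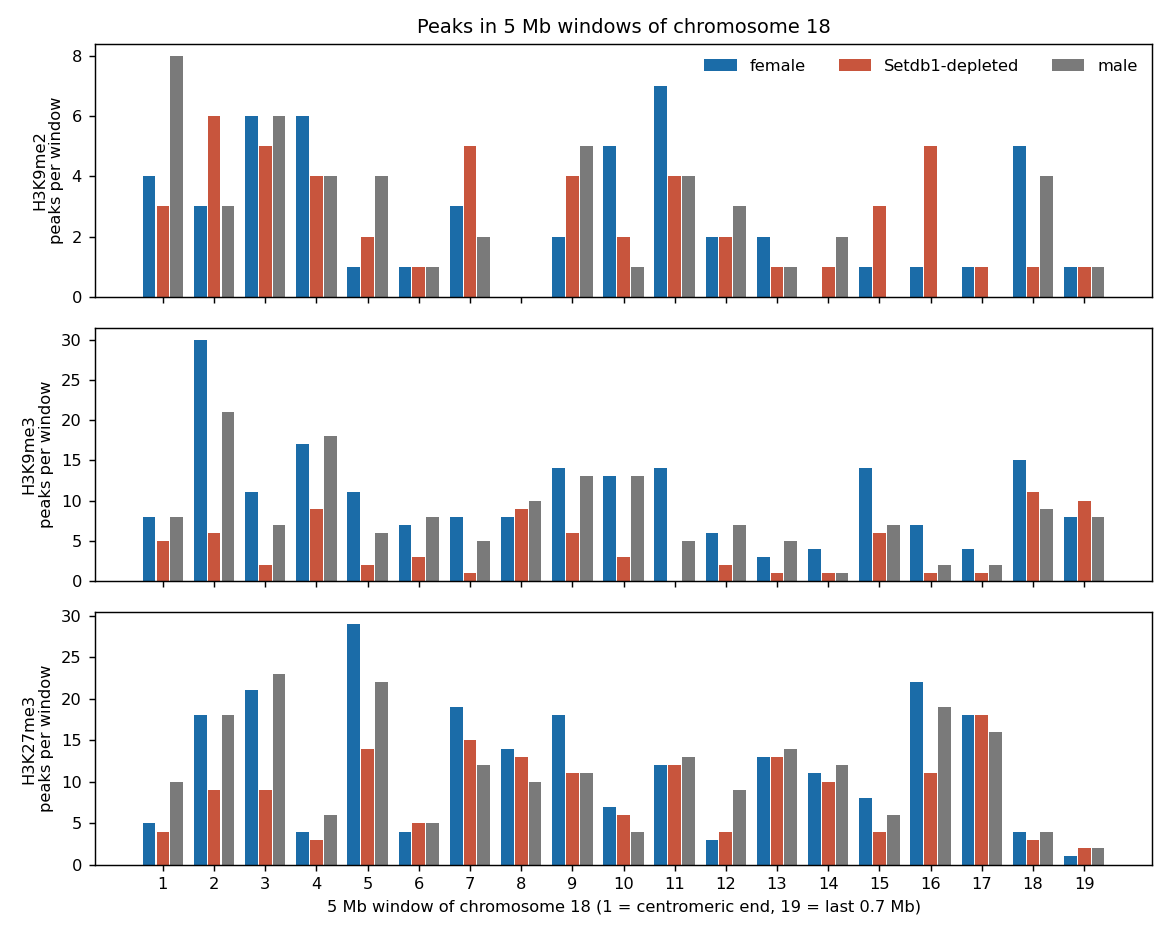
Number of peaks in each 5 Mb window of chromosome 18 for H3K9me2, H3K9me3 and H3K27me3 in the female, Setdb1-depleted and male lists. H3K9me3 bars of the Setdb1-depleted list are lower than the female bars in all windows but 8 and 19, and there is none in window 11.

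The 3 windows of largest H3K27me3 loss were not those of H3K9me3. They were windows 5, 3 and 16, which made up 58.5% of the net loss of 65 peaks. Window 5, from 20 to 25 Mb, went from 29 to 14 peaks with 22 in the male list, window 3 from 21 to 9, and window 16 from 22 to 11. Windows 11, 13 and 17 held the same number in both lists, though not all at the same places, and 13 of 19 windows held fewer. The dispersion ratio was 0.611, rank 8 of 19 from the lowest, near the median of 0.660 of the other autosomes. H3K9me2 had 0 to 7 peaks per window, fewer in 7 windows, more in 7 and equal in 5.

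Matching peaks by position gave the share of female peaks that the Setdb1-depleted list also held, taking an overlap of at least 1 bp. Of the 202 female H3K9me3 peaks on chromosome 18, 48 were found again and 154 were not (76.2% missing, against 66.7% of all autosomal female peaks). Of the 231 H3K27me3 peaks, 121 were missing (52.4%, against 41.2%), and of the 51 H3K9me2 peaks 39 were missing (76.5%, against 73.2%). The share of H3K9me3 peaks found, 23.8% (18.1 to 30.2), was second lowest of the autosomes, since chromosome 10 had 23.5%. For H3K27me3 the 47.6% found (41.0 to 54.3) was the lowest of the 19.

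The male list also missed more peaks on chromosome 18 than elsewhere. It lacked 121 of the 202 female H3K9me3 peaks (59.9%, against 49.3% over all autosomes) and 105 of the 231 H3K27me3 peaks (45.5%, against 38.7%). It lacked 41 of 51 H3K9me2 peaks (80.4%, against 65.0%). For all 3 marks the share found in the male list was the lowest of the 19 autosomes. The female H3K9me3 number was used to choose the chromosome, so for H3K9me3 this rank is no separate support. Female H3K9me3 peaks that the male list shared were found in the Setdb1-depleted list in 26 of 81 cases (32.1%, 22.2 to 43.4), against 45.6% on the other autosomes. Of the 121 that the male list lacked, 22 were found (18.2%, 11.8 to 26.2), against 21.2%.

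Matching from the male list gave 121 of 155 H3K9me3 peaks missing from the Setdb1-depleted list (78.1%, against 67.0% of all autosomal male peaks). For H3K27me3 it gave 106 of 216 (49.1%, against 41.1%) and for H3K9me2 37 of 49 (75.5%, against 75.1%). These shares also rest on the Setdb1-depleted list, whose low H3K9me3 number was used to choose the chromosome, so they are no separate support.

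Peaks in the Setdb1-depleted list that overlapped no female peak numbered 30 of its 79 H3K9me3 peaks (38.0%, against 43.1% over all autosomes), 50 of 166 for H3K27me3 (30.1%, against 25.5%) and 39 of 51 for H3K9me2 (76.5%, against 62.0%). Of the 30 H3K9me3 peaks, 11 lay in windows 18 and 19 and 4 in window 8. The equal number of H3K9me2 peaks in both lists therefore came from largely different places.

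**Figure D3:**
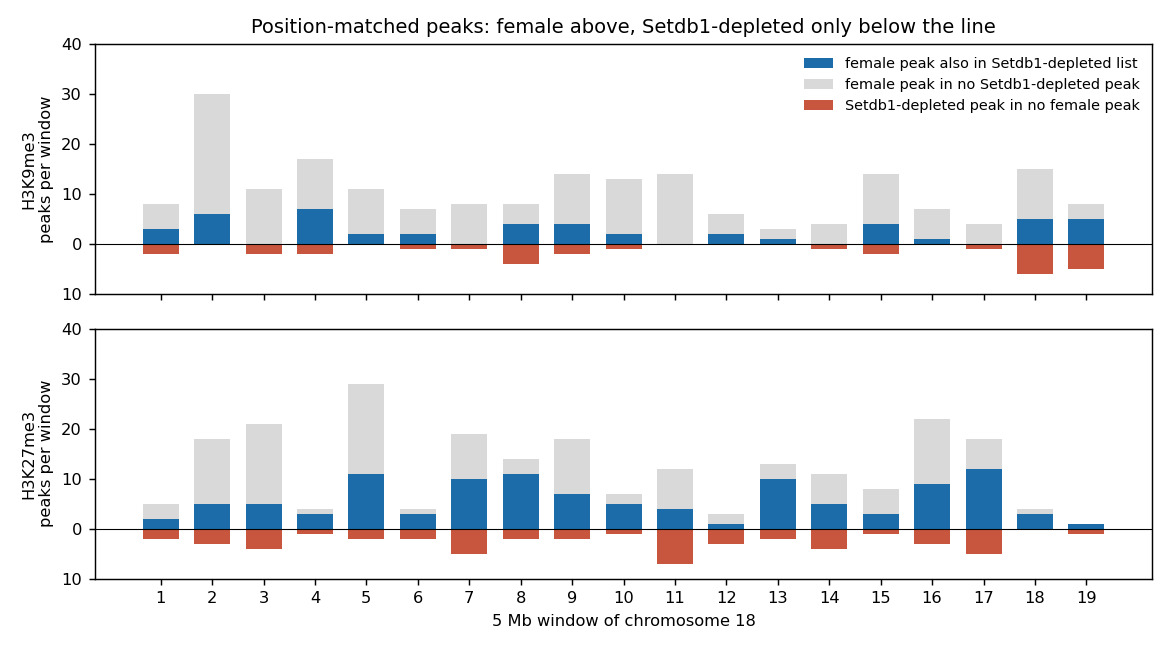
Female peaks of chromosome 18 per 5 Mb window, split into those that overlap a Setdb1-depleted peak (blue) and those that do not (grey), with peaks found only in the Setdb1-depleted list below the line (red). H3K9me3, above, is grey in most windows and has most red peaks in windows 18, 19 and 8, whereas H3K27me3, below, keeps blue peaks in every window.

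Missing peaks were narrower than kept ones. Lists were called in steps of 5 kb, with 10 kb as the narrowest width. H3K27me3 peaks kept had a median width of 30 kb and those missing 15 kb, and only 2 of the 38 female peaks of 10 kb were kept, against 97 of the 145 of 20 kb or more (66.9%, 58.6 to 74.5). For H3K9me3 the medians were 15 and 10 kb. At 10 kb the share of H3K9me3 peaks kept was 18.1% on chromosome 18 and 18.2% elsewhere. At 20 kb or more it was 11 of 27 (40.7%, 22.4 to 61.2) against 61.2% (58.5 to 63.8). The gap between chromosome 18 and the other autosomes was thus widest for wide H3K9me3 peaks, although with 27 such peaks the intervals still overlapped.

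The widest H3K9me3 domain of chromosome 18 covered the gamma protocadherins and was missing from the Setdb1-depleted list. Clustered protocadherins are cell surface proteins of neurons, which give a neuron its adhesive identity. Their genes form alpha, beta and gamma clusters. Alpha and gamma genes have alternative first exons and a shared end, whereas each beta gene has its own end. The female peak at chr18:37655001-37775000 was 120 kb wide and held the starts of the 18 genes from Pcdhga1 to Pcdhga12. The male list held a peak of 65 kb at chr18:37710001-37775000 and another of 10 kb over the starts of Pcdhga1 and Pcdhga2. H3 reads under the female peak were 2776, 1662 and 1924 in the female, Setdb1-depleted and male pools, -0.04 for Setdb1-depleted over female on the scaled log2 values. Of 52 autosomal female H3K9me3 peaks at least 120 kb wide, 9 were missing from the Setdb1-depleted list (17.3%).

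At the alpha cluster the H3K9me3 domain was shortened. The female peak at chr18:36865001-36955000 was 90 kb wide and reached over the starts of Pcdha1, Pcdha2, Pcdha3 and Pcdha4. In the Setdb1-depleted list 2 abutting peaks, together from 36860001 to 36915000, ended before Pcdha1, which starts at 36930184. In the male list peaks ran from 36855001 to 36950000 and took in Pcdha1, Pcdha2 and Pcdha3. A second alpha domain at chr18:37025001-37050000, past the start of Pcdha12, overlapped peaks in both other lists.

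Counted by gene starts, 25 of the 57 annotated protocadherin genes lay in female H3K9me3 peaks, 17 in male peaks and 1, Pcdhb9, in a Setdb1-depleted peak. Pcdhb8, Pcdhb15 and Pcdhb16 were the beta genes in female peaks. Over the span from the first to the last variable gamma start, 104 kb, covered length was 104 kb in the female, 63.8 kb in the male and 0 kb in the Setdb1-depleted list, a measure added after seeing the data. The alpha span of 90 kb was covered for 39.8, 19.8 and 0 kb. Beta starts lay in a span of 253 kb with 55 kb covered in female, 35 kb in male and 25 kb in Setdb1-depleted cells. Neighbouring starts share a peak and are not separate observations.

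H3K27me3 was nearly absent from the protocadherin clusters. A peak over Pcdhac2, the last alpha gene, was found in the female and Setdb1-depleted lists. The Setdb1-depleted list alone held a peak of 20 kb at chr18:37640001-37660000, which covers Taf7, the gene of a subunit of a general transcription factor, and the edge of the missing gamma domain. Setdb1 itself had male peaks within the gamma cluster at chr18:37686089-37686209 (fold enrichment 4.86) and chr18:37722130-37722444 (5.47), with q-values of 0.0156 and 0.00153. The female list held 1 Setdb1 peak in the alpha cluster, at fold enrichment 3.03 and a q-value of 1.00, and the Setdb1-depleted list none.

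**Figure D4:**
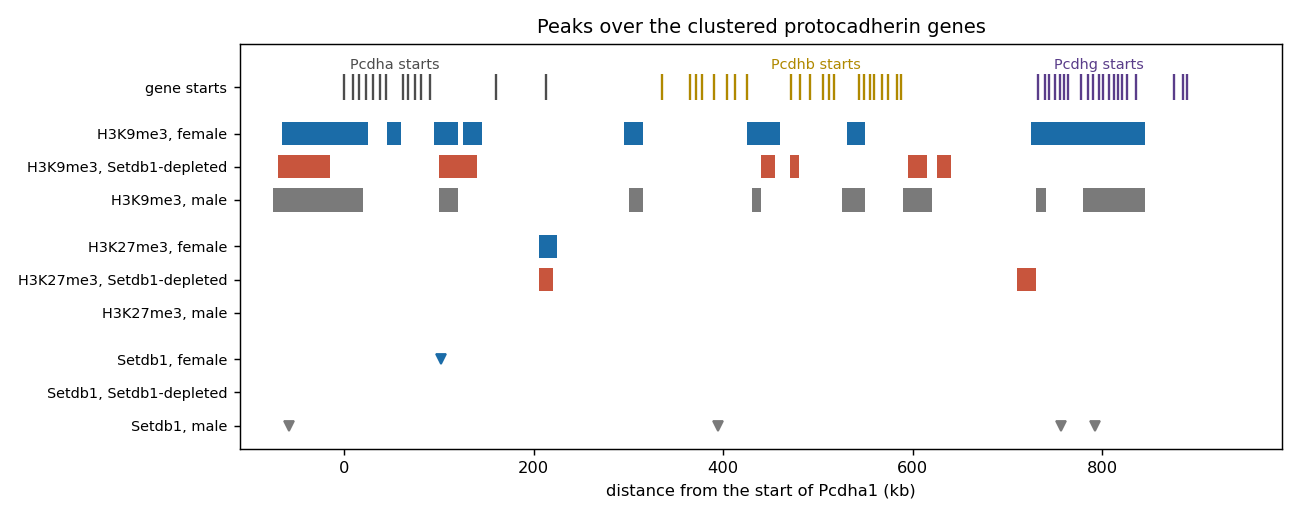
Peaks across the protocadherin clusters against distance from the start of Pcdha1 in kb, with gene starts at the top, boxes for H3K9me3 and H3K27me3 peaks and triangles for Setdb1 peaks in the 3 lists. The 120 kb female H3K9me3 box over the gamma starts has a shorter male counterpart and none in Setdb1-depleted cells.

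Other wide H3K9me3 peaks were few and mostly lay outside genes. The female peak beside the centromere, 55 kb wide and nearest to Vmn1r238, a pheromone receptor gene, had the same borders in all 3 lists. The Setdb1-depleted list alone held a peak of 75 kb at chr18:3065001-3140000 over the start of Vmn1r238. A peak of 25 kb at Gm45871, near the distal end, overlapped peaks in both other lists. The widest female peaks with no Setdb1-depleted peak, after the gamma domain, were one of 30 kb nearest to Dok6 and 3 of 25 kb nearest to Rock1, a kinase of the cytoskeleton, Kcnn2, a potassium channel, and Mex3c. Only that near Rock1 was in the male list.

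The widest H3K9me2 domains were smaller. The one beside the centromere, 40 kb wide in the female list, was found in all 3 lists. Those nearest to Cdh2, the gene of N-cadherin (30 kb), and Epb41l4a (25 kb) overlapped Setdb1-depleted peaks but no male peak, and those nearest to Lyzl1 and in Dpysl3 (15 kb each) overlapped peaks of both. Peaks in Socs6, a cytokine signalling inhibitor (30 kb), and nearest to Hrh4, a histamine receptor (20 kb), were in the male list but not in the Setdb1-depleted list. Those nearest to Eno1b, Cetn1 and Gm5096 were in the female list alone.

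Over all 513 protein-coding genes of chromosome 18, H3K9me3 starts numbered 29 in the female, 3 in the Setdb1-depleted and 19 in the male list. Of the 29, 28 were in no Setdb1-depleted peak (96.6%, against 52.3% over all autosomes), but 27 of these are protocadherins or gene models that read through them. Counted over gene bodies, 64.5% were missing. The remaining starts were those of Rprd1a, a regulator of RNA polymerase II, which was missing, and Mbd1, which encodes a protein that binds methylated DNA and was kept. H3K9me2 covered a single start in each list, Lyzl1 in female cells (100% missing, against 47.6%) and Vmn1r238 in Setdb1-depleted cells.

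H3K27me3 starts on chromosome 18 were mostly kept. They numbered 74 female, 61 Setdb1-depleted and 65 male. Of the 74, 24 were in no Setdb1-depleted peak (32.4%, against 25.5%) and 50 were, and 11 starts were in Setdb1-depleted but not in female peaks. Of 12 developmental transcription factors, 6 had starts in female peaks and 5 in Setdb1-depleted peaks, against 14.4% and 11.9% of all starts of the chromosome. Gata6 (endoderm and heart), Pou4f3 (hair cells of the inner ear), Onecut2 (liver and nervous system), Rax (eye) and Sall3 were in all 3 lists, and Nfatc1, a calcium-dependent factor, was in the female and male lists only.

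Receptor and neural genes were marked at 7 of 16 starts in the female list, 4 in the Setdb1-depleted list and 6 in the male list, where 14.4%, 11.9% and 12.7% of all 513 starts of the chromosome were marked. Nrg2 (a neuregulin), Grp (gastrin-releasing peptide) and Galr1 (a galanin receptor) were in all 3. Htr4, a serotonin receptor, and Mc2r, the ACTH receptor, were in the female and male lists. Dcc, the netrin receptor, and Nol4 were in the female list alone, and Mc4r, the hypothalamic melanocortin receptor, in the Setdb1-depleted list alone. Celf4 was marked in the male list alone.

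The widest female H3K27me3 domains that overlapped a Setdb1-depleted peak were those of Htr4, Fam69c and C18orf63, Nrg2, Pou4f3 and Zbtb7c, each of 100 kb or more. The Zbtb7c domain had the same borders, chr18:75740001-75840000, in both lists. The 120 kb domain over the start of Htr4, however, was matched by peaks of only 15 and 10 kb inside the gene, while the male list held abutting peaks of 80 and 95 kb. A neighbouring female Htr4 domain of 50 kb had no Setdb1-depleted peak.

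The widest missing H3K27me3 domains were at Lman1 and Ccbe1 (65 kb), Camk4 (60 kb), Fbxo15 (55 kb) and Ttr (45 kb), the gene of transthyretin. All of these but that of Fbxo15 were in the male list. Among cadherins, Dsc3 and Dsg2, of desmosomes, were marked in all 3 lists and Dsc2 in the male list, of 10 genes. Of 10 matrix and stromal genes, 2 starts were marked in the female, 1 in the Setdb1-depleted and 2 in the male list, numbers near the shares of 14.4%, 11.9% and 12.7% over all starts of the chromosome. They were Adamts19 in all 3 lists, Colec12 in the female and Ccbe1 in the male list. Of 12 zinc finger genes only Zbtb7c was marked. Genes used by most cells, such as Rps14 and Lmnb1, had 0 of 12 starts in any histone peak.

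Missing and kept peaks differed in sequence content for H3K27me3 more than for H3K9me3. H3K27me3 peaks kept on chromosome 18 had a median GC content of 44.1% and 27.3% of their bases masked as repeats in RefSeq, whereas those missing had 41.0% and 39.3%. On the other autosomes the same medians were 45.2% and 27.2% against 42.5% and 32.8%. H3K9me3 peaks were repeat-rich in both sets, at 72.7% masked for kept and 67.4% for missing peaks, in a chromosome of which 32.8% is masked. On the other autosomes the order was reversed, at 62.8% for kept and 66.6% for missing H3K9me3 peaks. Across 18 full windows, female H3K27me3 peak number and the number of gene starts had a Spearman rho of 0.66, and H3K9me3 peak number one of -0.43. The points are neighbouring windows of 1 chromosome, so these are descriptions.

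At missing H3K9me3 peaks the other marks were no more frequent in Setdb1-depleted than in female cells. Of the 154 female H3K9me3 peaks missing from the Setdb1-depleted list, 28 had overlapped H3K27me3 in female cells and 14 overlapped it in Setdb1-depleted cells. The count over H3K9me2 was 14 in both. On the other autosomes 15.9% overlapped H3K27me3 in female cells and 9.31% in Setdb1-depleted cells.

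H3 reads, the control of the histone calls, were examined to see whether chromosome 18 was represented evenly in the pools. The deposited log2 values of H3 came back as whole reads, within 0.02, once a single factor per pool was undone. Under the female H3K9me3 peaks of chromosome 18 there were 46015 female, 29068 Setdb1-depleted and 33917 male H3 reads. The share of H3 reads on chromosome 18, Setdb1-depleted over female, was 0.018 on the log2 scale (-0.003 to 0.040), and the other autosomes ran from -0.038 to 0.037. Under female H3K27me3 peaks it was 0.018 (0.005 to 0.030), just above the other autosomes, which ran from -0.014 to 0.009. Male over female was -0.002 and 0.010. The part of H3 in the number of peaks called was not tested.

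Among the 14 windows with at least 1000 female reads under H3K9me3 peaks, the H3 ratio ran from -0.118 to 0.142. Of these, 12 lay within the middle 95% of windows of the other autosomes (-0.112 to 0.113). Window 1 was above, at 0.142 (0.083 to 0.200), and window 9 below, at -0.118 (-0.219 to -0.018). Window 1 holds the peak next to the centromere, at chr18:2995001-3050000, with 4401 female H3 reads and a difference of 0.21 in both the Setdb1-depleted and the male pool. This peak was in all 3 H3K9me3 lists. Under H3K27me3 peaks window 1 had 0.196 (0.137 to 0.256), above the highest of 442 windows of the other autosomes, 0.138, and window 6 had -0.074 (-0.186 to 0.038), under the middle 95% (-0.052 to 0.082). Windows 11 and 2, where most H3K9me3 peaks were missing, had 0.013 (-0.090 to 0.115) and -0.014 (-0.071 to 0.043).

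H3 levels differed slightly with the fate of a peak. On chromosome 18 the H3 log2 ratio was 0.047 (0.026 to 0.069) in missing H3K27me3 peaks, 0.002 (-0.013 to 0.017) in kept ones and -0.045 (-0.076 to -0.014) in those found only in the Setdb1-depleted list. For H3K9me3 these values were 0.007 (-0.019 to 0.032), 0.042 (0.004 to 0.079) and -0.068 (-0.122 to -0.015). These are ratios of summed reads. The median per-peak differences for H3K9me3 were 0.018, -0.036 and -0.025, so the value of kept peaks changed sign with the measure. On chromosome 18, peaks that only the Setdb1-depleted list held thus had lower H3 in that pool. H3 was the control of the histone calls, so the fate of a peak and its H3 reads are not independent. On the other autosomes the ratios of summed reads in such peaks were -0.052 for H3K27me3 and 0.042 for H3K9me3. The median per-peak differences there were both negative, at -0.061 and -0.041. For H3K9me2 the chromosome 18 peaks found only in the Setdb1-depleted list had a ratio of -0.182 (-0.227 to -0.136).

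**Figure D5:**
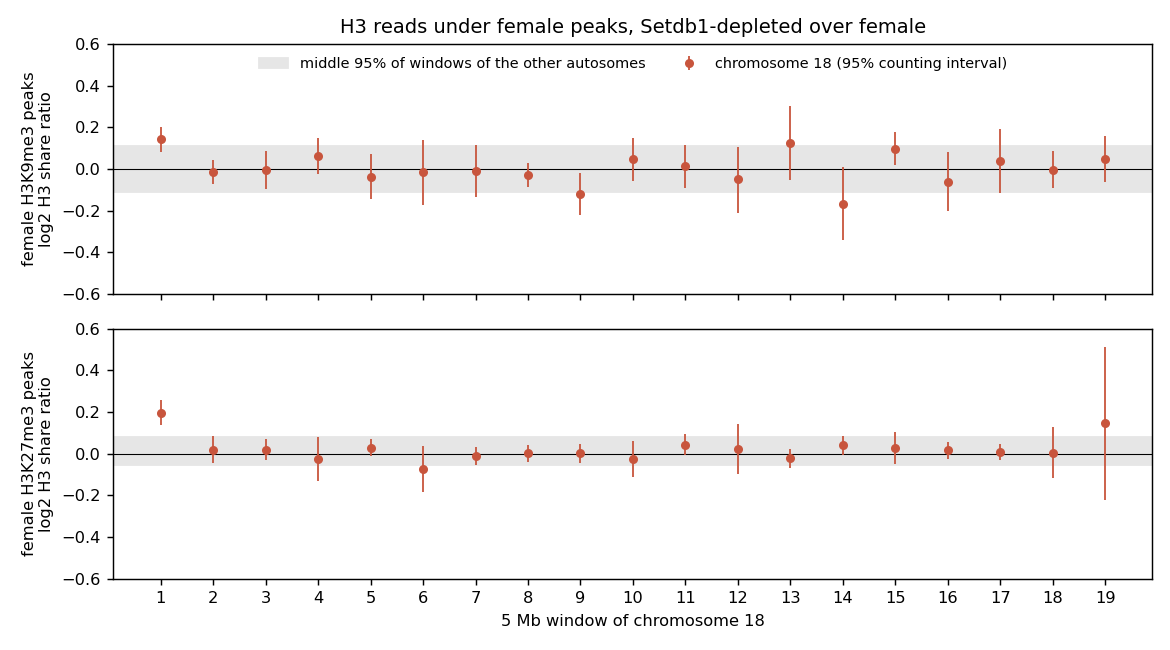
Log2 ratio of the share of H3 reads, Setdb1-depleted over female, under female H3K9me3 peaks (above) and female H3K27me3 peaks (below) in each 5 Mb window of chromosome 18, with 95% counting intervals. The grey band is the middle 95% of windows with at least 1000 reads on the other autosomes. Window 1 lies above the band in both panels.

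Setdb1 peaks on chromosome 18 were few and weak. The lists, which have narrow peaks with a median width near 100 bp, held 36 female, 10 Setdb1-depleted and 102 male peaks. Setdb1-depleted over female was -1.85 on the log2 scale (ratio 0.278, 0.123 to 0.571), against -2.43 to -0.97 on the other autosomes, and -0.74 among peaks with -log10 p of at least 5. The ratio of male to female was 2.83 (1.92 to 4.27), against 2.82 on the other autosomes together. No female peak of chromosome 18 was found in the Setdb1-depleted list (100% missing, against 98.1%) or in the male list (100%, against 95.2%), where 0 of 36 allows a share of up to 9.74%, and none of the 10 Setdb1-depleted peaks was in the female list (100%, against 93.8%). After filtering, the ChIP pools held 42853662 female, 18322471 Setdb1-depleted and 12320583 male reads per the file headers, and the larger of ChIP and input was sampled down to the smaller before calling. The calls thus used 18134299 female, 14405821 Setdb1-depleted and 12320583 male ChIP reads, with the most peaks at the lowest depth.

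At a q-value under 0.05, 1 of 36 female, 2 of 10 Setdb1-depleted and 17 of 102 male peaks remained. On the other autosomes 12.6% of female, 28.4% of Setdb1-depleted and 25.7% of male peaks did. The share on chromosome 18 was lower in each list, though it rests on few peaks. The strongest was a male peak within Ppp2r2b, the gene of a phosphatase subunit, at chr18:42975793-42976056 with a fold enrichment of 14.50 and 28 reads of pileup. Male peaks at both ends of the chromosome, next to Gm45871 and in the peak beside the centromere, had pileups of 166 and 148 at fold enrichments of 2.04 and 1.94. The strongest female peak lay 419778 bp from Pard6g, at a fold enrichment of 5.00. The strongest Setdb1-depleted peaks lay near Malt1 and Socs6, both at 5.07.

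Setdb1 peaks were set against the repressive domains of the same cells. In female cells 6 of 36 lay inside a histone peak (16.7%, 6.37 to 32.8), against 21.3% on the other autosomes. In male cells it was 15 of 102 (14.7%, 8.47 to 23.1), against 24.5%. The Setdb1-depleted list had 4 of 10 there, an interval of 12.2% to 73.8%, against 29.1% elsewhere. Histone peaks covered 10.2% of chromosome 18 in female, 9.12% in male and 6.69% in Setdb1-depleted cells. Their cover of the other autosomes was larger, at 14.6%, 13.2% and 11.1%. Starts of protein-coding genes lay within 1 kb of 2 of the 102 male peaks and of no female or Setdb1-depleted peak. On the other autosomes they did so for 22 of 1068 female, 10 of 327 Setdb1-depleted and 112 of 3011 male peaks. The header of the Setdb1-depleted list names a non-silencing hairpin where the labels give one against Setdb1, so this list is described by its label alone.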

How the data were processed

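All 43 samples were mapped to 18 groups from the labels. The authors aligned reads with Bowtie2 to mm10 with strain differences masked, after CASAVA 1.4 base calling, and called Setdb1 peaks with MACS2, per the submitters' processing notes and the study's methods. Histone peaks were called by the authors on pooled libraries with H3 as control. Which H3 pool controlled which call is not given in the sources used here. The deposited H3 values are log2 read numbers scaled between pools. The deposited Setdb1 lists give pileup (signal), fold enrichment (a ratio), and -log10 of p and q per the file headers. 0 columns were left out as belonging to no sample.

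Analyses used Python 3.11.15, numpy 2.4.6, pandas 2.3.3 and scipy 1.17.1, with GENCODE M21 genes and RefSeq GRCm38 for lengths, GC content and repeat masking. Intervals were exact Poisson, Clopper-Pearson or conditional 95% intervals; the scripts were tested on simulated data. H3 intervals hold the reads of the comparison regions fixed. An H3 value of 0 reads is stored as 0.9 before scaling. Peaks were matched by at least 1 bp.

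The chromosome, its windows and the gene lists were chosen with earlier results of these data known. Genes were named by the 5 widest kept and missing female peaks per mark, the 3 widest peaks of other lists, the 5 strongest Setdb1 peaks per list, and 7 gene lists. Genes of windows 2 and 11, Taf7, Rprd1a, Mbd1 and Rpl17 were named after their values were seen. The extraction protocol in the labels names another cell type than the titles, which were followed.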

Additional observations from a re-analysis of the deposited data

How the results depend on the processing

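No paired analysis was possible because each list was called on pooled libraries and carries no replicate number, and for the same reason no replicate was left out in turn. Of 140 alternatives for 42 results, 110 stayed within the counting interval of the reported value, or within 1.5 times it for the dispersion ratios, which have no interval, and 30 moved further. The cause of each move was not tested. Values near 0 changed sign in some alternatives: male over female went from -0.10 to 0.08 for H3K27me3 with equal numbers of the widest peaks and from -0.06 to 0.25 for H3K9me2 without 10 kb peaks, and the H3 ratios, 0.018 and -0.002, changed sign under several of the peak sets given here. The H3K9me2 density of the Setdb1-depleted list relative to the other autosomes was 1.16 by peak number and 0.934 by covered bases. The ratios of Setdb1-depleted to female peaks for H3K9me3 and H3K27me3 stayed negative on the log2 scale in every alternative run.

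With covered bases in place of peak number, density relative to the other autosomes went for H3K9me3 from 0.940 to 0.750 (female), from 0.610 to 0.448 (Setdb1-depleted) and from 0.801 to 0.628 (male), and for H3K27me3 from 0.855 to 0.671, from 0.712 to 0.606 and from 0.865 to 0.695. Without 10 kb peaks the H3K9me3 densities were 0.780, 0.454 and 0.613, and the share of female peaks found was for H3K9me3 16.5% (Setdb1-depleted list) and 29.9% (male list) and for H3K9me2 42.9% (Setdb1-depleted list), with an H3K9me2 dispersion ratio of 0.434. Taking equal numbers of the widest autosomal peaks per list moved Setdb1-depleted over female to -0.37 for H3K9me3, -0.15 for H3K27me3 and 0.61 for H3K9me2. Chromosome 18 was the lowest of 19 autosomes for H3K9me3 in each of the 6 settings run. All of them count the same lists by which the chromosome was chosen, so this rank is no separate support. Windows shifted by 2500 kb put fewer H3K9me3 peaks in 100% of windows in place of 89.5%. Counting gene bodies in place of starts moved the share of H3K9me3 genes missing from 96.6% to 64.5%.

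H3 log2 ratios under other peak sets were 0.065, -0.009 and 0.055 (H3K9me2 peaks of the female, Setdb1-depleted and male lists) and -0.005 (male H3K27me3 peaks) for Setdb1-depleted over female, and 0.040 and 0.020 (female and male H3K9me2 peaks) for male over female, with a per-peak median of 0.019. Setdb1 peaks with -log10 p of at least 5 gave a female density of 0.590. Their log2 ratios were -0.74 for Setdb1-depleted over female and 2.43 for male over female. Both were higher than the log2 ratios of all Setdb1 peaks. The ratio of male to female given above for all Setdb1 peaks is not on the log2 scale. At a q-value under 0.05, 0% of female and 29.4% of male Setdb1 peaks lay in a histone peak. These shares rest on 1 female and 17 male peaks, too few for a comparison. H3K9me2 had 0 to 7 peaks in a 5 Mb window, so its window ratios have wide counting intervals.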

Other observations

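At least 1 of the 3 histone marks covered 10.2% of chromosome 18 in the female list, 6.69% in the Setdb1-depleted list and 9.12% in the male list, against 14.6%, 11.1% and 13.2% of the other autosomes. Of the H3K9me2 peaks, 20 of 51 (39.2%) overlapped H3K9me3 in female cells and 9 of 51 (17.6%) in Setdb1-depleted cells, against 49.1% and 34.9% on the other autosomes. As a share of H3K9me3 peaks the same overlaps were 9.90% and 11.4%. H3K27me3 and H3K9me3 overlapped at 37 of the 202 female H3K9me3 peaks (18.3%) and at 4 of the 79 in Setdb1-depleted cells (5.06%), with as many H3K27me3 peaks, 37 of 231 and 4 of 166. The other autosomes had 17.5% and 9.74% of H3K9me3 peaks.

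The 11 starts in Setdb1-depleted but not female H3K27me3 peaks included Mc4r, Cables1 (a cyclin-dependent kinase adaptor), Ppargc1b (a coactivator of mitochondrial genes), Sncaip (the synuclein partner synphilin), Mapk4 and Taf7. Sncaip, Ppargc1b and Mapk4 also lay in male peaks, and the others named did not. These genes were named after their values were seen. The start of Rpl17, a ribosomal protein gene that most cells use, lay in an H3K27me3 peak in all 3 lists.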
